A study of Mus musculus with 5 samples.

Results

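The CC chemokine genes of the deposited table were Ccl8, Ccl7 and Ccl17. They were chosen by symbol, as every probe set annotated to a single gene named Ccl and a number, which gave 3 of 3373 probe sets and 3 of 2190 named genes. Ccl7 and Ccl8 had been singled out as monocyte attractants with earlier results of these data known, and the symbol rule added Ccl17. The arrays measured mouse bone marrow mesenchymal stem cells (MSC), stromal cells of the marrow kept here as a primary culture in Mesencult medium. On 2 arrays the MSC had been exposed for 48 h to purified T cells that were activated in vitro with antibodies to CD3 and CD28, with 10 T cells per MSC. On the other 3 arrays the cells were naive MSC without T cells. A transwell membrane kept T cells and MSC apart, so that soluble products could pass between them. No group carried a mutation or an added agent that the labels name, and strain and age were not given in the sources used here. Each array is labelled as a biological repetition, without a statement of whether the cultures came from separate animals.

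CC chemokines are small secreted proteins with a pair of neighbouring cysteines that act on seven-span receptors of leukocytes. CCL7 is a ligand of CCR2, the receptor that blood monocytes use to leave the bone marrow, and also of CCR1 and CCR3. CCL8 attracts monocytes in human, whereas mouse CCL8 is known as a ligand of CCR8. CCL17 is a ligand of CCR4, a receptor of type 2 helper and regulatory T cells rather than of monocytes. Stromal cells and macrophages both make such chemokines when they meet inflammatory cytokines.

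In the RefSeq gene order of mouse assembly GRCm38.p6, Ccl7 and Ccl8 belong to a run of 6 neighbouring CC chemokine genes on chromosome 11, in the order Ccl2, Ccl7, Ccl11, Ccl12, Ccl8 and Ccl1. The other 4 were not analysed here. Ccl17 lies on chromosome 8 beside Cx3cl1 and Ccl22, which were not analysed here either. Upstream sequence was found in the RefSeq promoter table of GRCm38.p6 for 2 of the 3 genes, Ccl8 and Ccl17. The 250 bases before each start site are shown for these genes because no entry was found for Ccl7. They lie on the plus strand at chr11:82114935-82115184 for Ccl8 and at chr8:94810203-94810452 for Ccl17, and capitals mark the motif matches described after them.
Ccl8: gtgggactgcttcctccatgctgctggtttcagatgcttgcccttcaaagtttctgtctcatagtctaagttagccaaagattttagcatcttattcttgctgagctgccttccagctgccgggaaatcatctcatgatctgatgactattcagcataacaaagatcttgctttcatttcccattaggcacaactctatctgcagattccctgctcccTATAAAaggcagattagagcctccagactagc
Ccl17: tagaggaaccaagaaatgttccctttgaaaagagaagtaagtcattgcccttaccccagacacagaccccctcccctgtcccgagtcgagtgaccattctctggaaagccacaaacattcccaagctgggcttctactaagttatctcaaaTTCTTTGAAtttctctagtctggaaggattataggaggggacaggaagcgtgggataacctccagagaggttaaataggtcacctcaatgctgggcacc
Both strands were searched for the TATA box (TATAAA), the STAT-type element TTCNNNGAA and the core of the interferon response element, GAAANNGAA. The Ccl8 window held TATAAA 32 to 27 bases before the start, and 12.4% of the 32851 RefSeq windows of this length hold it. The Ccl17 window held TTCNNNGAA 99 to 91 bases before the start, against 7.02% of all windows. GAAANNGAA, found in 7.13% of all windows, was not among the letters of either window, and the marked matches overlapped no other motif searched.

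Exposure to activated T cells left all 3 CC chemokine genes at a higher level than in naive MSC. Ccl8 was 31.2-fold higher, Ccl7 12.8-fold higher and Ccl17 1.52-fold higher, and each passed the test in limma. That count says little by itself, because 100% of the probe sets in the table passed the same test, 48.7% upward and 51.3% downward. Under a stricter rule, with p adjusted for 15 times the number of tests, 12.3% of probe sets passed, 6.08% upward and 6.23% downward, and Ccl8 alone of the CC chemokines was among them. The same rule over genes passed 8.63%, 4.61% upward and 4.02% downward. The table holds only part of an array, and in every probe set of it the co-culture arrays lay on one side of all arrays of MSC alone, by at least 0.34 on the log2 scale. It is therefore treated as selected on this comparison, errors may be too small and differences too large, and the sizes and the values of single arrays carry the description that follows. The values are log2 expression after RMA (robust multi-array average), and each gene had 1 probe set with an identifier ending in _at, without the marks for probes shared among related transcripts. No detection calls come with RMA, and in RNA from a whole culture fewer cells that express a gene and less RNA per cell cannot be told apart.

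Ccl8 (probe set 1419684_at) had log2 expression of 9.89 and 9.87 in co-cultured MSC, against 5.20, 5.04 and 4.52 in MSC alone. The co-culture arrays were almost equal, and the groups were separated by a gap of 4.67, far more than the range of 0.68 within MSC alone. Mean log2 expression was 9.88 ± 0.02 (SD, n = 2) in co-cultured MSC and 4.92 ± 0.36 (SD, n = 3) in MSC alone. The log2 difference was 4.97 ± 0.25 (SE), with an adjusted p of 0.000228 in limma. Among all probe sets it was the 14th largest rise and the 14th widest gap. Between single arrays the fold ran from 25.5, for co-culture replicate 2 over MSC replicate 1, to 41.6, for co-culture replicate 1 over MSC replicate 3. The rise of Ccl8 was thus large whichever arrays were set against each other.

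Ccl7 (1421228_at) had log2 expression of 11.70 and 11.34 in co-cultured MSC, against 8.65, 8.33 and 6.53 in MSC alone. The groups did not overlap, but MSC replicate 3 stood well below the other arrays of MSC alone. Mean log2 expression was 11.52 ± 0.25 (SD, n = 2) in co-cultured MSC and 7.84 ± 1.14 (SD, n = 3) in MSC alone. The log2 difference was 3.68 ± 0.62 (SE; adjusted p 0.00447 in limma), the 46th largest rise of the table. Without MSC replicate 3 the rise was 8.14-fold, or 3.03 on the log2 scale, with an adjusted p of 0.00163. Single pairs of arrays gave folds from 6.45 to 35.9, so the direction held in all pairs and the size depended on the array of MSC alone it was read against.

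Ccl17 (1419413_at) had log2 expression of 6.75 and 6.68 in co-cultured MSC, against 6.17, 6.22 and 5.94 in MSC alone. These values lie close together, with a gap of 0.46 between the groups that is near the smallest of the table, 0.34. Mean log2 expression was 6.71 ± 0.05 (SD, n = 2) in co-cultured MSC and 6.11 ± 0.15 (SD, n = 3) in MSC alone. The log2 difference was 0.60 ± 0.18 (SE; adjusted p 0.0156 in limma), and 4.33% of all probe sets had a smaller absolute difference. The call was lost without co-culture replicate 1, at a log2 difference of 0.57 with an adjusted p of 0.0513 (0.0046 to 0.234 over all alternatives). Ccl17 thus showed the smallest and least secure rise of the CC chemokines, at 1.37-fold to 1.75-fold between single arrays.

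**Figure D1:**
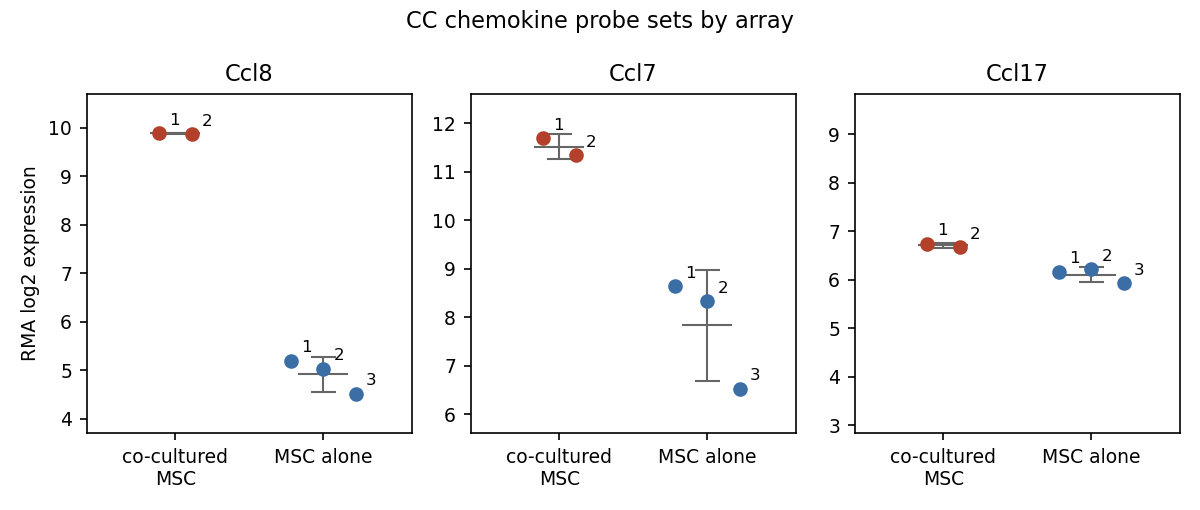
RMA log2 expression of Ccl8, Ccl7 and Ccl17 on each array, with co-cultured MSC (replicates 1 and 2, red) left of MSC alone (replicates 1 to 3, blue). Horizontal bars are group means and vertical bars SD, each panel spans the same number of log2 units, and MSC replicate 3 is the lowest array in every panel, most so for Ccl7 at 6.53.

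The rise of Ccl8 exceeded that of Ccl7 by 1.29 on the log2 scale. Per array, the log2 value of Ccl8 minus that of Ccl7 was -1.80 and -1.47 in co-cultured MSC, against -3.45, -3.30 and -2.02 in MSC alone. Both co-culture arrays lay above all arrays of MSC alone, although MSC replicate 3 came close to co-culture replicate 1. Levels of different probe sets are not comparable, so only the shift of this value between the groups has a meaning. The exact two-sided permutation test of the shift gave p = 0.2, which is the smallest p that 2 arrays against 3 allow, and the difference in size was therefore not established. Without MSC replicate 3 the shift was 1.74. Ccl8 and Ccl7 rose by 4.36 and 3.08 more than Ccl17 on the log2 scale, values for which no test was run. Taken singly, the same exact test gave p = 0.2 for each of the 3 genes.

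**Figure D2:**
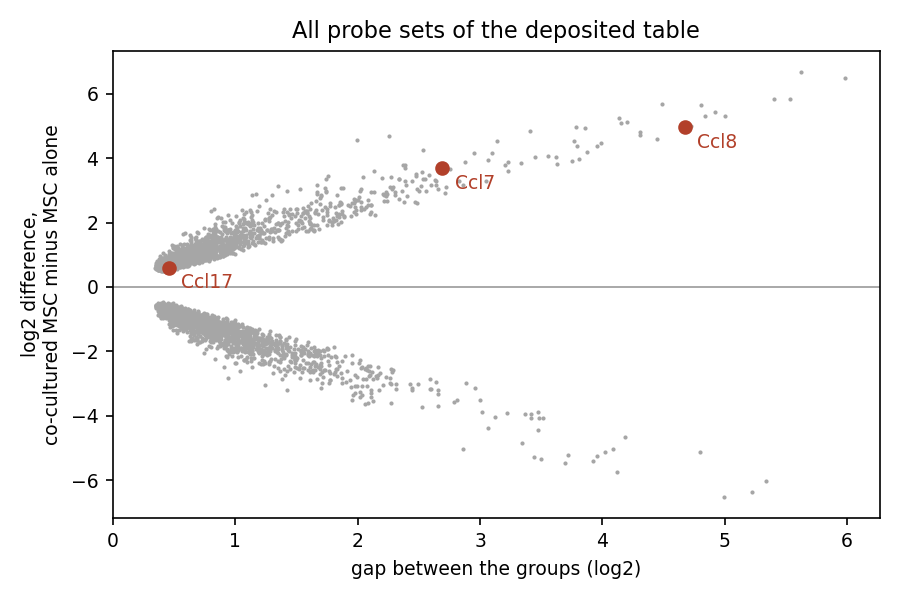
Log2 difference of co-cultured MSC minus MSC alone (vertical axis) against the gap between the nearest arrays of the groups (horizontal axis, log2) for all 3373 probe sets (grey), with Ccl8, Ccl7 and Ccl17 in red. Ccl8 lies far out at a gap of 4.67, Ccl7 at 2.69 and Ccl17 at 0.46 near the empty strip below the smallest gap of the table, 0.34.

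The CC chemokines also differed in how closely their replicates lay together. Co-culture replicate 1 exceeded replicate 2 by 0.02 for Ccl8, 0.36 for Ccl7 and 0.07 for Ccl17 on the log2 scale, between the 5th and 95th percentiles of all probe sets, -0.84 and 1.07. The log2 value of MSC replicate 3 minus the mean of MSC replicates 1 and 2 was -1.96 for Ccl7, -0.60 for Ccl8 and -0.26 for Ccl17. Only 16 probe sets, 0.474% of the table, had a lower value of this deviation than Ccl7, while 303 were lower than Ccl8 and 861 lower than Ccl17. The median over all probe sets was -0.02, so MSC replicate 3 was not low across the table. Read on 1 probe set per gene, all 7 chemokine genes that were higher in co-culture had their lowest MSC value in replicate 3. So did 533 of the 1057 genes that were higher (50.4%). Of the genes that were lower in co-culture, 357 of 1133 (31.5%) did so. For Cxcl9, one of the 7, the deviation of MSC replicate 3 was only -0.06. Its other probe set was lowest in MSC replicate 2, at 3.74 against 3.83 in replicate 3. The other probe sets of Cxcl1 and Cxcl11 were lowest in replicate 3. The part of this array in the rise of Ccl7 is shown by the value without it, given above, and the labels describe no difference in how it was handled.

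**Figure D3:**
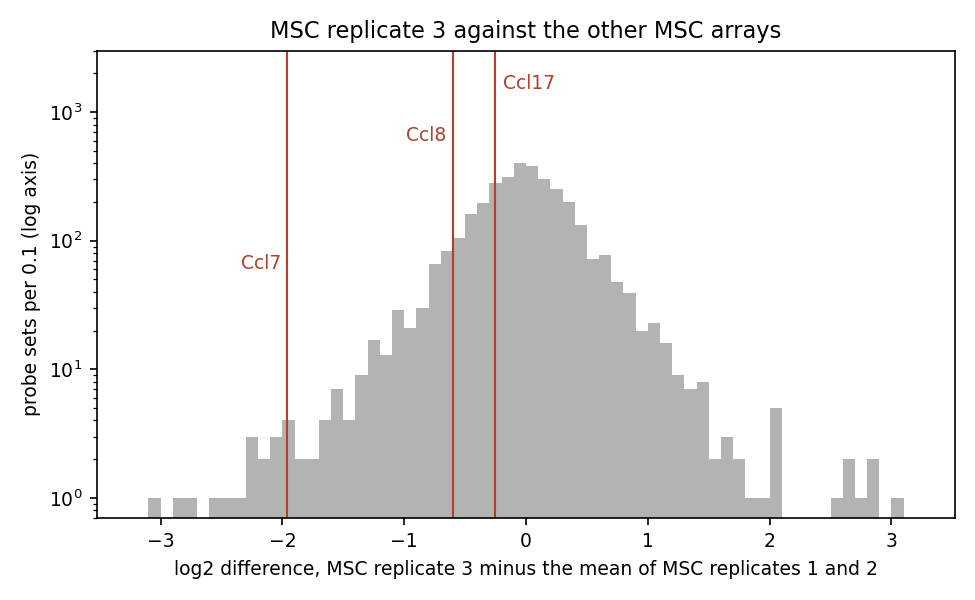
Number of probe sets (logarithmic axis) by log2 difference of MSC replicate 3 minus the mean of MSC replicates 1 and 2, in bins of 0.1. Red lines mark Ccl7 at -1.96, in the sparse lower tail, and Ccl8 at -0.60 and Ccl17 at -0.26, inside the bulk of the table.

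Of the 22 CC chemokine genes listed for mouse, 19 were not analysed here, among them Ccl2 and Ccl5. Of 17 listed genes of other chemokine classes 5 were in the table, 4 of them higher and 1 lower in co-culture. Over all genes 48.3% passed upward and 51.7% downward. The median log2 difference of the 5 was 2.51, where the median absolute difference over all probe sets was 1.16. The median over all genes, -0.61, is no typical change, since the smallest absolute difference of the table was 0.467. Cxcl11, a ligand of CXCR3 on activated T cells, had the largest log2 difference, 6.67 ± 0.87 (SE), or 5.73 without MSC replicate 3, and its other probe set was higher by 3.60. Cxcl9, another CXCR3 ligand, was at 7.28 and 9.99 in co-cultured MSC, against 4.09, 4.14 and 4.05 in MSC alone. Its co-culture arrays thus differed by 2.71 where those of Ccl8 differed by 0.02, and the log2 difference of Cxcl9 was 5.90 when co-culture replicate 1 was left out and 3.19 when replicate 2 was. The other probe set of Cxcl9 was higher by 0.82, so the size of the change in both CXCR3 ligands depended on the probe set. Cxcl1, a neutrophil attractant read by 3 probe sets, was higher by 2.13 to 2.60 in them. Cxcl16, a ligand of CXCR6, was higher by 2.51 ± 0.57 (SE), or by 1.90 without MSC replicate 3, and lost its call without moderation of the spread. Cxcl12, which retains blood progenitors and monocytes in the marrow, was lower by 3.52 on the log2 scale, the opposite direction to the CC chemokines, at 5.18 and 4.96 in co-cultured MSC against 8.05, 7.99 and 9.74 in MSC alone. MSC replicate 3, lowest for Ccl7, was the highest array for Cxcl12.

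**Figure D4:**
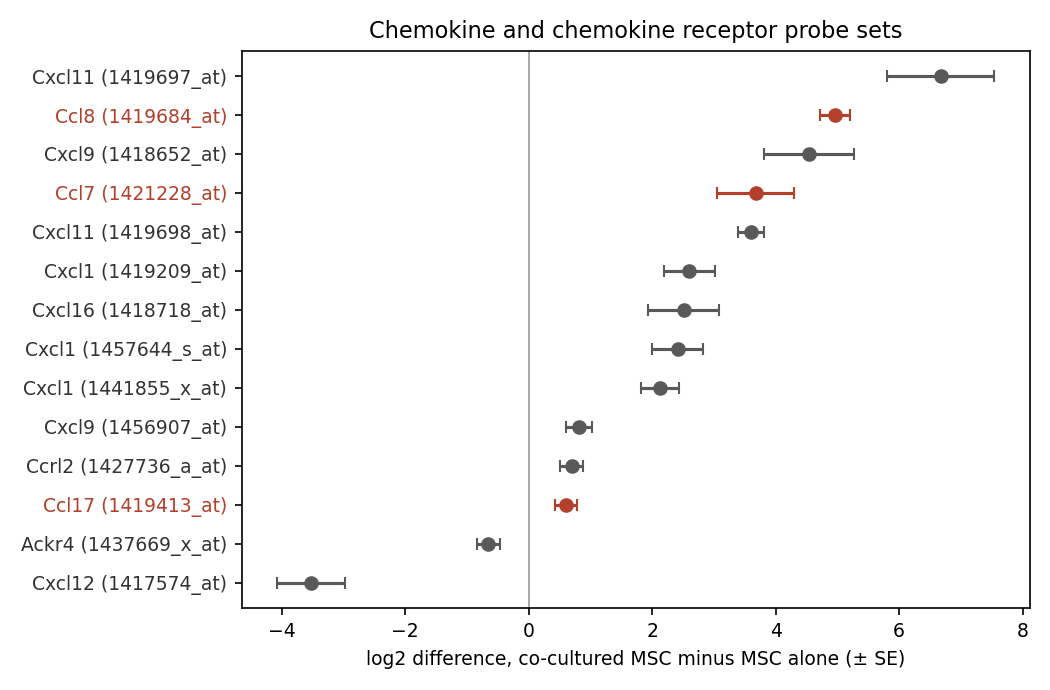
Log2 difference of co-cultured MSC minus MSC alone with its limma standard error (horizontal bars) for every chemokine and chemokine receptor probe set of the table, CC chemokines in red. Ccl8 at 4.97 and Ccl7 at 3.68 lie among the probe sets of the CXCR3 ligands, Ccl17 at 0.60 lies beside the smallest rises, and Cxcl12 lies alone at -3.52.

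No classical receptor for a CC chemokine was analysed here. Of 23 receptor genes listed 2 were in the table. Ccrl2, an atypical receptor that binds chemerin, was at 4.84 and 5.07 in co-cultured MSC, against 4.35, 4.15 and 4.27 in MSC alone. Ackr4, a scavenger of other CC chemokines (CCL19, CCL21 and CCL25), was at 3.18 and 3.36 in co-cultured MSC, against 4.06, 3.74 and 3.96 in MSC alone. The log2 differences were 0.70 ± 0.18 and -0.65 ± 0.19 (SE), small and in opposite directions, and that of Ackr4 lost its call without MSC replicate 1 and without co-culture replicate 1. Of 16 genes listed as other signals for monocytes 2 were in the table, and both were higher, as were 48.3% of all genes. Vcam1, an adhesion molecule for monocytes and lymphocytes, was higher by 2.91 ± 0.18 (SE). Csf2, encoding the growth factor GM-CSF, was at 5.82 and 7.42 in co-cultured MSC, against 4.78, 4.59 and 4.25 in MSC alone, so that its fold was 4.23 with both co-culture arrays, 7.36 with replicate 2 alone and 2.43 with replicate 1 alone.

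Listed genes of interferon, STAT and NF-kB signalling were also in the table, and their part in the rises of Ccl7 and Ccl8 was not tested. All 12 measured genes of the interferon and STAT list, of 21 listed, were higher in co-culture, beside 48.3% of all genes, with a median log2 difference of 1.52. Usp18, a feedback inhibitor of the type I interferon receptor, was higher by 3.14 ± 0.33, the transcription factor gene Irf7 by 2.85 ± 0.32, Stat2 by 2.62 ± 0.16 and Irf9 by 2.19 ± 0.21 (SE). Socs3, a cytokine feedback inhibitor, was higher by 1.95 ± 0.46 and the repressor gene Irf2 by 1.55 ± 0.28 (SE), and Socs3 lost its call without moderation of the spread. All 6 measured genes of NF-kB signalling, of 24 listed, were also higher, beside the same 48.3% of all genes, with a median of 1.58. They were Nfkbiz, a nuclear cofactor of NF-kB, by 2.38 ± 0.29, the inhibitor gene Nfkbib by 2.04 ± 0.27, Tnip1 by 1.62 ± 0.31, the adaptor genes Traf2 and Myd88 by 1.54 ± 0.33 and 1.51 ± 0.19, and the TNF receptor gene Tnfrsf1a by 0.80 ± 0.19 (SE). Over all genes the median difference was -0.61, which is no typical change, and the median absolute difference over all probe sets was 1.16. Because the table is treated as selected on this comparison, these counts describe the table and no more.

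Secreted chemokines are held at cell surfaces by heparan sulfate and trimmed by proteinases. Of 31 genes listed for these steps 5 were in the table, 4 of them lower and 1 higher in co-culture, where 51.7% of all genes were lower and 48.3% higher. The heparan sulfate core protein genes Gpc6, Sdc2 and Sdc1 had log2 differences of -2.15 ± 0.26, -1.46 ± 0.26 and -1.45 ± 0.23, and Sulf2, which removes sulfate groups from heparan sulfate, had -2.12 ± 0.26 (SE). The size varied with the probe set, from -0.66 to -4.08 among the other probe sets of Gpc6 and down to -3.35 for Sdc2. Ctss, encoding the proteinase cathepsin S, was higher by 2.89 ± 0.29 (SE).

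Ctss is also one of the 2 macrophage and monocyte markers in the table, of 34 listed, and the other, Mpeg1, was higher by 4.48 ± 0.25 (SE). In MSC alone Ctss was at 3.08, 3.65 and 3.36, where the lowest value of the table is 2.62. Both markers were higher in co-culture, as were 48.3% of all genes. The mean log2 level of this pair was 8.03 and 7.35 in co-cultured MSC and between 3.74 and 4.24 in MSC alone. Macrophages are a known source of CCL7 and CCL8, and the part of such cells in the rises of Ccl7 and Ccl8 was not tested. The defining markers Ptprc, Cd68, Adgre1 and Csf1r were not analysed here. Of 27 T cell markers 0 were in the table. Of 22 MSC markers 9 were in it, with 3 higher and 6 lower in co-culture, beside 48.3% higher and 51.7% lower of all genes. Pdgfra, a receptor used to isolate MSC, was higher by 3.77 ± 0.70, or by 3.08 without MSC replicate 3, while its relative Pdgfrb had a log2 difference of -2.55 ± 0.44 (SE), -3.19 with co-culture replicate 2 alone and -1.92 with replicate 1 alone. The collagen genes Col1a1 and Col1a2 had log2 differences of -3.94 ± 0.27 and -2.02 ± 0.29 (SE). Here too the size depended on the probe set, at -5.13 in the other one of Col1a1 and at -5.26 and -3.51 in those of Col1a2.

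Profiles over the 5 arrays, each taken as the difference from its own mean, were compared by Euclidean distance to find the 5 genes most like each CC chemokine. The distance covers all 5 arrays, is dominated by the size of the group difference, and is given without a test. Nearest to Ccl8 was Tap1, a subunit of the peptide transporter of the class I pathway, at a distance of 0.11. Tap1 was at 11.58 and 11.50 in co-cultured MSC, against 6.77, 6.74 and 6.13 in MSC alone, which repeats the pattern of Ccl8 array by array, although the other probe set of Tap1 rose by only 0.76. Psmb9, an immunoproteasome subunit gene, followed at 0.41, Cd274, which encodes the inhibitory ligand PD-L1, at 0.48, Ifi207 at 0.60 and Slamf8, a receptor gene of the SLAM family, at 0.67.

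Nearest to Ccl7 was Xaf1, encoding the XIAP-associated factor, at 0.47. Xaf1 was at 12.28 and 11.91 in co-cultured MSC, against 9.06, 9.38 and 7.16 in MSC alone. Dtx3l and Parp9, whose products form an ADP-ribosylation complex, followed at 0.61 and 0.77, then Rtp4 at 0.81 and Psmb8, another immunoproteasome subunit gene, at 0.82. The other probe sets of Dtx3l, Rtp4 and Psmb8 rose by 3.675, 2.32 and 2.62 on the log2 scale. Those used here rose by 3.29, 3.38 and 4.16. All 5 nearest genes had their lowest value in MSC replicate 3, as Ccl7 did. This held for the 5 nearest to Ccl8 and the 5 nearest to Ccl17 too, so it is not particular to Ccl7. The range within MSC alone was 2.08 to 2.78 for the genes nearest to Ccl7, against 0.21 to 1.26 for those nearest to Ccl8. The distance that picked these genes includes MSC replicate 3, so the likeness is in part a result of the choice. Without that array the folds of Xaf1, Dtx3l, Parp9, Rtp4 and Psmb8 were 7.31, 5.78, 5.11, 5.75 and 10.2, against 11.8, 9.78, 8.24, 10.4 and 17.9 with it. The genes nearest to Ccl17 were Tom1l1 at 0.07, Rbck1 at 0.10, and Clp1, Fam53a and Set at 0.11, all with small rises between 0.56 and 0.65 on the log2 scale. Small profiles lie close together, so distances for Ccl17 are not to be set against those for Ccl8 and Ccl7. No gene was among the 5 nearest of more than 1 CC chemokine.

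**Figure D5:**
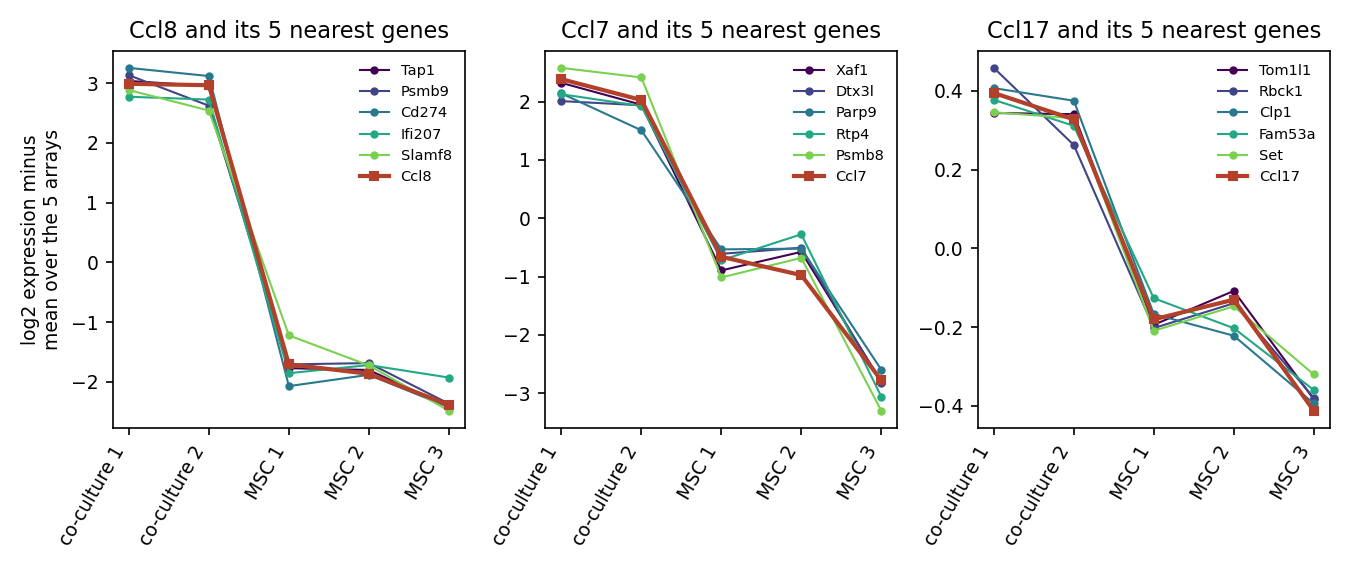
Log2 expression minus the mean over the 5 arrays for Ccl8, Ccl7 and Ccl17 (red squares) and the 5 genes nearest to each (circles), with the co-culture arrays left of the arrays of MSC alone; lines join the values of a gene and do not mark an order of arrays. In MSC alone the genes near Ccl8 vary less than those near Ccl7, and the genes of every panel are lowest at MSC replicate 3. The genes were picked on all 5 arrays, this one included. The vertical scale of the Ccl17 panel is much smaller.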

How the data were processed

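The authors deposited log2 expression values per probe set, summarised from Affymetrix arrays by RMA (per the submitters' processing notes, without a version). How the 3373 probe sets of the table were selected from the array was not stated in the labels. The platform's probe table gave 1 gene symbol for 3013 probe sets, and Entrez identifiers of 3010 were found in RefSeq GRCm38.p6, changing 0 symbols. The 5 columns were matched to samples by accession and grouped by sample title.

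Co-cultured MSC (2 arrays) and MSC alone (3 arrays) were compared in limma 3.58.1 (R 4.3.3) by lmFit followed by eBayes, without covariates, two-sided, with Benjamini-Hochberg adjustment over all probe sets and a threshold of 0.05. Gene lists were counted in a second fit on 1 probe set per gene, the one with the highest mean, over 2190 genes. Errors are moderated standard errors, and p-values set the group difference against the moderated spread between these arrays. The number of arrays limits the precision. The fit was tested on simulated data in which most probe sets were unchanged. Such data cannot show how the fit behaves on a table selected on this comparison.

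Named were every CC chemokine probe set, the 5 nearest genes of each, and up to 6 genes a list, by absolute difference. The members and lists were chosen with earlier results of these data known. Alternatives were scaling, a filter on the dimmest 25%, the moderation, the number of tests, each array left out, and the replicate number as a block.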

Additional observations from a re-analysis of the deposited data

How the results depend on the processing

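Ccl8, Ccl7 and Ccl17 kept their direction in all 13 alternatives each, and Ccl8 also its call (adjusted p in limma 4.89e-05 to 0.0144). With p adjusted for 15 times the number of tests, which changes nothing else, Ccl7 (log2 difference 3.68) had an adjusted p of 0.0671 and Ccl17 (0.60) one of 0.234, both missing the threshold, while Ccl8 passed with 0.00343. Then 205 probe sets passed upward (6.08%) and 210 downward, 101 genes upward and 88 downward. Of the lists, 1 CC chemokine, 1 other chemokine, 4 interferon and STAT, 3 NF-kB, 3 processing and presentation and 2 MSC marker genes passed. The other alternatives gave adjusted p from 0.000284 to 0.0358 for Ccl7 and from 0.0046 to 0.0513 for Ccl17, the last without co-culture replicate 1 (0.57).

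Leaving out 1 array gave log2 differences of 4.765 to 5.11 for Ccl8, 3.03 to 4.08 for Ccl7 and 0.52 to 0.66 for Ccl17, and 1.02 to 1.74 for the Ccl8 rise minus the Ccl7 rise. It left 1497 to 1641 probe sets higher and 1619 to 1730 lower, 964 to 1057 genes higher and 1061 to 1133 lower, and 2 to 3 CC chemokine genes called. Without a co-culture array the lone array is assumed to vary like the others. Other named genes that lost their call were Socs3, Cxcl16 and Rtp4 without moderation of the spread, Ackr4, Set and Tom1l1 without MSC replicate 1, Ackr4, Fam53a and Rbck1 without co-culture replicate 1, and Set when quantile normalization was repeated. Centring each array on its median raised every log2 difference by 0.16. The labels do not state whether same-numbered arrays of the groups were paired. With 2 pairs, differences between replicates 1 and 2 correlated at 0.40 over probe sets between the groups. With the replicate number as a block, which drops MSC replicate 3, Ccl8, Ccl7 and Ccl17 rose by 4.765, 3.03 and 0.52, all still called, and the Ccl8 rise exceeded the Ccl7 rise by 1.74. The choice of another probe set was not run, since each CC chemokine gene had 1. Without detection calls, signal over background could not be judged.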
